A study of Mus musculus with 10 samples.

Results

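The genes described here are Card14 and 4 relatives and partners, Card9, Card10, Bcl10 and Malt1, which together form the scaffold complexes that carry signals from cell surface receptors to the transcription factor NF-kB. They are 5 of the 24421 genes counted in inguinal subcutaneous white fat of wild-type C57BL/6J mice. Card14 was selected on its difference between CONV and sham in these libraries, and the other 4 were chosen by membership of its protein family or complex. All values of Card14 in CONV are therefore a description and carry no test. The left hindlimb had received 33.3 Gy of electrons in 2 of the groups, at ultra-high dose rate in FLASH (4 libraries) and at the conventional rate in CONV (3 libraries), and the sham group (3 libraries) was not irradiated. Fat of the left hindlimb was collected in every group at day 70, and all libraries carry batch number 1. Neither age nor sex of the animals is stated in the sources used here. The labels do not say that the libraries come from separate animals, and a p-value therefore reflects only how much these samples vary, which may be technical.

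CARD proteins of this family are long coiled-coil scaffolds. When a kinase of the protein kinase C family phosphorylates one of them, it opens and nucleates filaments of BCL10, to which MALT1 is bound, and MALT1 then acts both as a platform for TRAF6 and as a protease. The scaffolds divide the work by cell type: CARD14 is best known from keratinocytes, CARD9 from macrophages, dendritic cells and neutrophils, and CARD10 from endothelium, epithelium and other cells outside the blood. In white fat, adipocytes, stromal cells, vessels and resident macrophages lie together.

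The start of the Card14 coding sequence is shown because it encodes the N-terminal end of the protein, where the caspase recruitment domain (CARD) that meets BCL10 lies, the feature that the 3 scaffolds among these genes share with BCL10 itself. The first 300 coding bases are those of transcript Card14-202 in GENCODE M21, which has 2997 coding bases starting at position 119317106 on chromosome 11 of mm10, and capitals mark the start codon.
Card14: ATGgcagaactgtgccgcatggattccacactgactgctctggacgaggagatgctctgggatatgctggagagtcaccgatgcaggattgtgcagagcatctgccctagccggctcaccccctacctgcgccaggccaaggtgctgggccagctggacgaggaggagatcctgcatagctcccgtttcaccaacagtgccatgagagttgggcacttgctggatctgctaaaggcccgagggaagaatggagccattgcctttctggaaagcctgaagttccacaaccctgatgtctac
The 250 bases before the RefSeq start follow for Card9, Card10 and Bcl10, the 3 genes matched in the RefSeq promoter table (GRCm38.p6). Card14 and Malt1 were not matched. The windows are shown because Bcl10 was at its highest in the same 2 libraries in which Card10 was at its lowest. Card9 was highest in the 3 CONV libraries, and within FLASH and within CONV it was highest in those same 2. The windows lie at chr2:26360910-26361159 on the minus strand for Card9, at chr15:78803043-78803292 on the minus strand for Card10 and at chr3:145924012-145924261 on the plus strand for Bcl10. The RefSeq start can differ from the GENCODE span given below. For Bcl10 the window lies inside that span, which begins at 145922804, and for Card9 it overlaps the span's end at 26360918. Capitals mark a kappaB-like match, that is GGG, any 5 bases and then CC, read on either strand.
Card9: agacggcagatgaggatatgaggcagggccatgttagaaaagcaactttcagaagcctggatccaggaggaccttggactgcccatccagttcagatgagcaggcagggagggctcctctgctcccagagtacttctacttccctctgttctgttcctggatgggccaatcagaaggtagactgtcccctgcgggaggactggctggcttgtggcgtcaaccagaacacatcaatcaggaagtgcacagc
Card10: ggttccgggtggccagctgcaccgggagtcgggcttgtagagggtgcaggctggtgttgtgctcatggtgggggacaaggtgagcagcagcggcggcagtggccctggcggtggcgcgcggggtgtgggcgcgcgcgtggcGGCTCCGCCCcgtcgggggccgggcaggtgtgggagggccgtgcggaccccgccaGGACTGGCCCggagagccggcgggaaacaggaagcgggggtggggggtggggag
Bcl10: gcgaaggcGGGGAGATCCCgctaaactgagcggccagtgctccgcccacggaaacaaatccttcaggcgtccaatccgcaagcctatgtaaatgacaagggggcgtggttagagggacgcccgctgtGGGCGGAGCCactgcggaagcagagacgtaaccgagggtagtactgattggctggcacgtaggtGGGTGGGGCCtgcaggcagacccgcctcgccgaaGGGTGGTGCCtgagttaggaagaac
Bcl10 had 4 separate stretches with such a match, beginning 242, 123, 59 and 25 bases before the RefSeq start, of which the first holds overlapping matches on both strands. Card10 had 2, beginning 109 and 54 bases before the start, both read on the opposite strand, and Card9 had none in these letters. A motif this short is frequent, and 45.8% of the 32851 promoters in the table held it in the same 250 bases. TTCNNNGAA (STAT-like, in 7.02% of promoters), TGANTCA (AP-1-like, 6.75%) and TATAAA (12.4%) were not found in the letters of the 3 windows on either strand. GC content was 55.2% for Card9, 76% for Card10 and 62.4% for Bcl10.

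Gene counts per library were 22.4 M to 36.0 M (M, 1e6), so that 3 counts, taken as the limit of detection, correspond to 0.0833 to 0.134 CPM (counts per 1e6 gene counts), for counting error only. Levels are given as CPM after TMM scaling. Defining fat genes such as Adiponectin (Adipoq), Plin1 and Fabp4 were present in every library, with a summed level of 7 adipocyte markers of 15820 to 29844 CPM in 8 libraries. FLASH replicate 3 and CONV replicate 2 stood apart, with adipocyte sums of 3947 and 2618 CPM and with 8 B cell and lymph node markers at 1798 and 2191 CPM against 1.37 to 6.82 CPM in the other 8. These 2 are called the lymphocyte-rich pair, and results for the 5 genes are given with all 10 libraries and with the 8 others. In bulk tissue, fewer cells of a type and less RNA per cell cannot be told apart.

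Card14 was 8.60 and 9.82 times the sham mean in CONV replicates 1 and 3, and only 0.282 times in CONV replicate 2. Its gene (ENSMUSG00000013483.14) lies on chromosome 11 from 119307768 to 119345375 on the plus strand of mm10, with 22 exons after merging all transcripts. Levels in sham were 2.55, 2.64 and 1.95 CPM, in FLASH 3.51, 5.42, 0.463 and 4.85 CPM, and in CONV 20.5, 0.670 and 23.4 CPM for replicates in order. The 2 lowest of the 10 were the lymphocyte-rich pair, 1 in each irradiated group, and without them the 3 groups did not overlap and stood in the order sham, FLASH, CONV. These values rest on 58 to 84 counts in sham, on 116 to 157 in the other 3 FLASH libraries and on 639 and 635 in CONV replicates 1 and 3, against 12 and 20 counts in the pair.

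**Figure D1:**
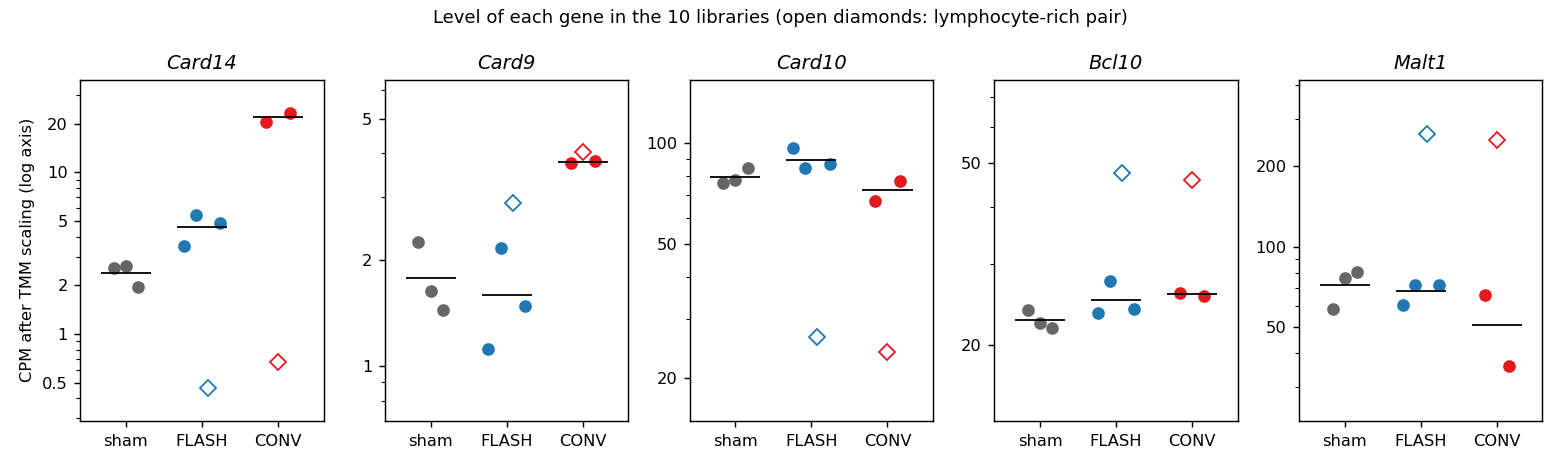
Level of each of the 5 genes (CPM after TMM scaling, log axis, a separate scale per panel) in the 10 libraries by group. Filled points are the 8 libraries outside the lymphocyte-rich pair, open diamonds are that pair, and horizontal lines are group means over the filled points. Card14 in CONV lies at 20.5 and 23.4 CPM with the third library at 0.670 CPM, Card9 is at 3.75 CPM or more in all 3 CONV libraries, and in Card10, Bcl10 and Malt1 the pair lies outside the range of the filled points.

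As a description, the fitted log2 difference of Card14 between CONV and sham was 2.64 ± 1.14 (SE) with all 10 libraries, where the groups overlapped. It was 3.18 ± 0.24 without the pair, a 9.07-fold difference between 21.9 ± 2.05 CPM (SD, n = 2) and 2.38 ± 0.374 CPM (n = 3). By this difference Card14 took rank 64 of the 15252 genes tested without the pair, and rank 532 of 15266 with all libraries. FLASH lay below CONV by a log2 difference of -2.06 ± 1.01 with 10 libraries and -2.24 ± 0.23 with 8. These numbers describe the libraries in which the gene was picked, and nothing more is read from them.

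FLASH against sham is the contrast of Card14 that the choice did not use, although it shares the sham libraries with the one that did. With all 10 libraries the log2 difference was 0.58 ± 1.02 (adjusted p = 0.998, edgeR), smaller than its error. Without FLASH replicate 3, the 3 FLASH libraries were 1.48, 2.28 and 2.04 times the sham mean, all above the highest sham library. The log2 difference was then 0.94 ± 0.22, or 1.92-fold (4.59 ± 0.977 CPM against 2.38 ± 0.374 CPM, n = 3 each), with an unadjusted p under 0.05. After adjustment over all 15252 genes it did not pass (adjusted p = 1.00), and no gene did in that contrast. With DESeq2 the adjusted p of the same value was 0.185.

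Card14 overlaps Sgsh, which encodes the lysosomal enzyme sulfamidase and lies on the opposite strand, in 955 bases or 20.7% of its exon bases, and whether reads were counted by strand is not stated. Sgsh was at 27.6, 28.7 and 21.2 CPM in sham, at 34.6, 28.4, 51.0 and 24.8 CPM in FLASH and at 23.5, 49.5 and 26.3 CPM in CONV. In CONV replicates 1 and 3, where Card14 was highest, Sgsh lay within its sham range. Its log2 difference between CONV and sham was -0.07 ± 0.19 without the pair (adjusted p = 0.897, edgeR) and 0.36 ± 0.35 with it (adjusted p = 0.675). The ratio of Card14 to Sgsh, a measure chosen after the values were seen, was 0.0924, 0.0919 and 0.0921 in sham, 0.871 and 0.889 in CONV replicates 1 and 3, and 0.00908 and 0.0135 in the pair.

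Card14 is best known from keratinocytes, so the 10 keratinocyte markers were summed beside it. They came to 13.5 to 21.6 CPM in sham and to 24.4 and 38.1 CPM in CONV replicates 1 and 3. The sum was 167 CPM in FLASH replicate 4, where every marker of the list was above sham, with Krt5 and Krt14 at 30.4 and 20.3 CPM and Card14 at 4.85 CPM. CONV replicate 3, which had the most Card14, had 3.94 CPM of Krt5 and 2.32 CPM of Krt14, against at most 0.0911 and 0.163 CPM in sham. In CONV replicate 1, with nearly as much Card14, Krt5 was at 0.0961 and Krt14 at 0.160 CPM. The sums of 131 and 123 CPM in the lymphocyte-rich pair came mostly from 1 desmosomal gene, Dsc3, at 109 and 93.9 CPM, while FLASH replicate 3 had Krt5 at 0.0772 CPM and Krt14, Krt17 and Lor at 0. Markers of ductal epithelium summed to 0.833 and 1.21 CPM in CONV replicates 1 and 3, below all sham libraries (1.28 to 3.45 CPM), and Elf5 was at 0 in every library.

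Expressed per 1000 CPM of the 7 adipocyte markers, Card14 was at 0.116, 0.122 and 0.118 in sham and at 0.118 and 0.117 in FLASH replicates 1 and 3. The low level in FLASH replicate 3 was thus matched by an equally low adipocyte sum, of which Lpl alone gave 2407 of 3947 CPM. The stromal sum was low in that library as well, at 799 CPM against 2792 to 3841 CPM in sham, so the match is not particular to adipocyte markers. FLASH replicates 2 and 4 had 0.204 and 0.254, and CONV replicates had 1.05, 0.256 and 1.48 in order. On this scale all 3 CONV libraries lay above every sham library, as did FLASH replicates 2 and 4. The value of CONV replicate 2 rests on 20 Card14 counts and depends on the markers used. Its adipocyte sum was 2618 CPM against 16574 to 21997 CPM in sham, but its blood endothelium sum was 540 CPM against 764 to 1034 CPM. Scaling to adipocyte markers was not planned and is given as a description. Macrophage markers summed to 1894 CPM in CONV replicate 1 but to 681 CPM in CONV replicate 3, inside the sham range of 659 to 804 CPM, while Card14 was alike in both. The 6 neutrophil markers found came to 20.8 and 10.9 CPM in these libraries against 3.63 to 5.92 CPM in sham, and skeletal muscle markers to 1566 and 1.40 CPM. Stromal markers were at 3309 and 1254 CPM there, against 2792 to 3841 CPM in sham. The part of these cell types in the Card14 level was not tested beyond these values.

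**Figure D2:**
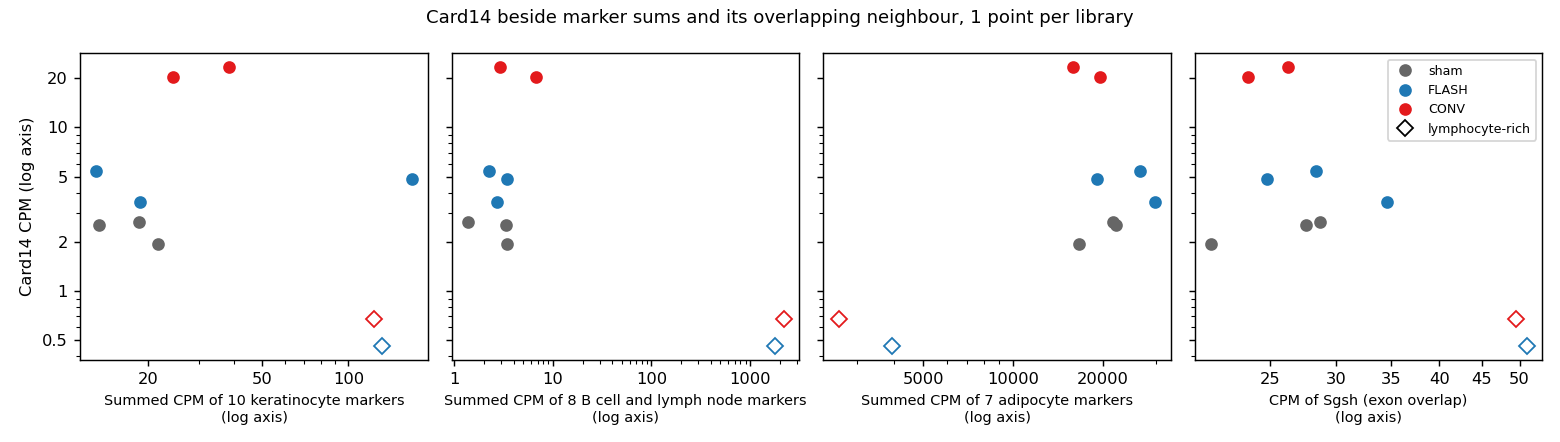
Card14 (CPM, log axis) in each library against the summed CPM of 10 keratinocyte markers, 8 B cell and lymph node markers and 7 adipocyte markers and against Sgsh, whose exons overlap it (all log axes). Points are libraries, coloured by group, and open diamonds are the lymphocyte-rich pair, which lies at the right of the lymph node panel and at the left of the adipocyte panel, with the lowest Card14 in each.

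Card9, the scaffold of myeloid cells behind the C-type lectin receptors, was higher in each of the 3 CONV libraries than in any sham or FLASH library. It lies on chromosome 2 from 26352176 to 26360918 on the minus strand (ENSMUSG00000026928.14, 13 merged exons). Its level was 2.25, 1.63 and 1.45 CPM in sham, 1.12, 2.16, 2.90 and 1.48 CPM in FLASH, and 3.75, 4.02 and 3.79 CPM in CONV. The CONV libraries spread over 3.84% of their mean (coefficient of variation) which makes it the most even of the 5 genes in that group. Counts were low throughout, 37 to 75 in sham and FLASH and 103 to 120 in CONV.

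Between CONV and sham the log2 difference of Card9 was 1.12 ± 0.40, or 2.17-fold, with 10 libraries (adjusted p = 0.607, edgeR). Without the pair it was 1.07 ± 0.34 (adjusted p = 0.246). FLASH lay below CONV by -1.01 ± 0.37 (adjusted p = 0.999) and, without the pair, by -1.24 ± 0.34 (adjusted p = 0.192). With DESeq2 and 8 libraries the second of these passed, with a log2 difference of -1.25 and an adjusted p of 0.0332. FLASH and sham differed by less than the error, 0.11 ± 0.37 with 10 libraries (adjusted p = 0.998, edgeR) and -0.17 ± 0.32 with 8. Card9 therefore kept its direction in CONV across the pair, but its adjusted p depended on the tool and on which libraries were in the fit. The macrophage sum was 1894 and 1540 CPM in CONV replicates 1 and 2 and 681 CPM, within the sham range, in CONV replicate 3. The sum of 6 neutrophil markers was above sham (3.63 to 5.92 CPM) in all 3 CONV libraries, at 20.8, 230 and 10.9 CPM, and was 34.2 CPM in FLASH replicate 3, the FLASH library with the most Card9. Whether these cells account for the level of Card9 was not tested.

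Card10, the scaffold that serves G protein-coupled and growth factor receptors outside the blood, was by far the most abundant of the family in this fat. It lies on chromosome 15 from 78775138 to 78803042 on the minus strand (ENSMUSG00000033170.14, 22 merged exons). Levels were 76.1, 77.95 and 84.3 CPM in sham, 96.5, 84.7, 26.6 and 86.7 CPM in FLASH, and 67.5, 23.9 and 77.3 CPM in CONV. The lymphocyte-rich pair had the lowest values by a wide margin, and the other 8 libraries lay between 67.5 and 96.5 CPM. Among those 8 all FLASH libraries were above all sham libraries and above both CONV libraries, with group means of 89.3 ± 6.31 (n = 3), 79.4 ± 4.29 (n = 3) and 72.4 ± 6.94 CPM (SD, n = 2) for FLASH, sham and CONV.

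The differences of Card10 were small. FLASH lay above CONV by a log2 difference of 0.31 ± 0.11 without the pair (adjusted p = 0.280, edgeR) and by 0.39 ± 0.48 with it. Between FLASH and sham it was 0.16 ± 0.10 without the pair and -0.11 ± 0.48 with it, and between CONV and sham -0.15 ± 0.11 (adjusted p = 0.599) and -0.50 ± 0.51 (adjusted p = 0.685). None passed the threshold, and the direction in FLASH against sham depended on FLASH replicate 3. The sum of 7 blood endothelium markers, cells in which CARD10 is known to work, was 540 and 623 CPM in the pair against 729 to 1069 CPM in the other 8.

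Bcl10, the adaptor that polymerises on every scaffold of the family, was nearly level outside the pair. It lies on chromosome 3 from 145922804 to 145934356 on the plus strand (ENSMUSG00000028191.11, 4 merged exons). Levels were 23.8, 22.3 and 21.8 CPM in sham, 23.5, 27.6, 47.6 and 24.0 CPM in FLASH, and 25.9, 45.8 and 25.6 CPM in CONV. All 3 CONV libraries were above all sham libraries, by a small step outside the pair (25.8 ± 0.240 against 22.6 ± 1.07 CPM). The log2 difference of CONV against sham was 0.17 ± 0.13 without the pair (adjusted p = 0.603, edgeR) and 0.52 ± 0.33 with it (adjusted p = 0.607). FLASH differed from sham by 0.14 ± 0.11 and 0.44 ± 0.31, and from CONV by -0.03 ± 0.13 and -0.08 ± 0.30 on the same scale, without and with the pair. None of the 6 values passed.

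Malt1, the protease of the complex, had the largest excess in the lymphocyte-rich pair of the 5. It lies on chromosome 18 from 65430938 to 65479067 on the plus strand (ENSMUSG00000032688.9, 14 merged exons). Levels were 58.4, 76.7 and 80.2 CPM in sham, 60.7, 72.2, 262 and 72.2 CPM in FLASH, and 65.9, 250 and 35.9 CPM in CONV. The pair stood at more than any other library, and CONV replicate 3, which had the most Card14, had the least Malt1. With 10 libraries the log2 difference was 0.71 ± 0.77 for CONV against sham (adjusted p = 0.696, edgeR) and 0.70 ± 0.73 for FLASH against sham (adjusted p = 0.998). Without the pair both turned negative, to -0.51 ± 0.26 (adjusted p = 0.447) and -0.08 ± 0.23. FLASH lay above CONV by 0.44 ± 0.26 (adjusted p = 0.516) in the 8 libraries. When CONV replicate 1 was left out as well, the log2 difference of Malt1 was -1.03 for CONV against sham and 0.95 for FLASH against CONV. CONV replicate 3 then stood alone for its group and was assumed to vary like the others, so these values describe that library.

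**Figure D3:**
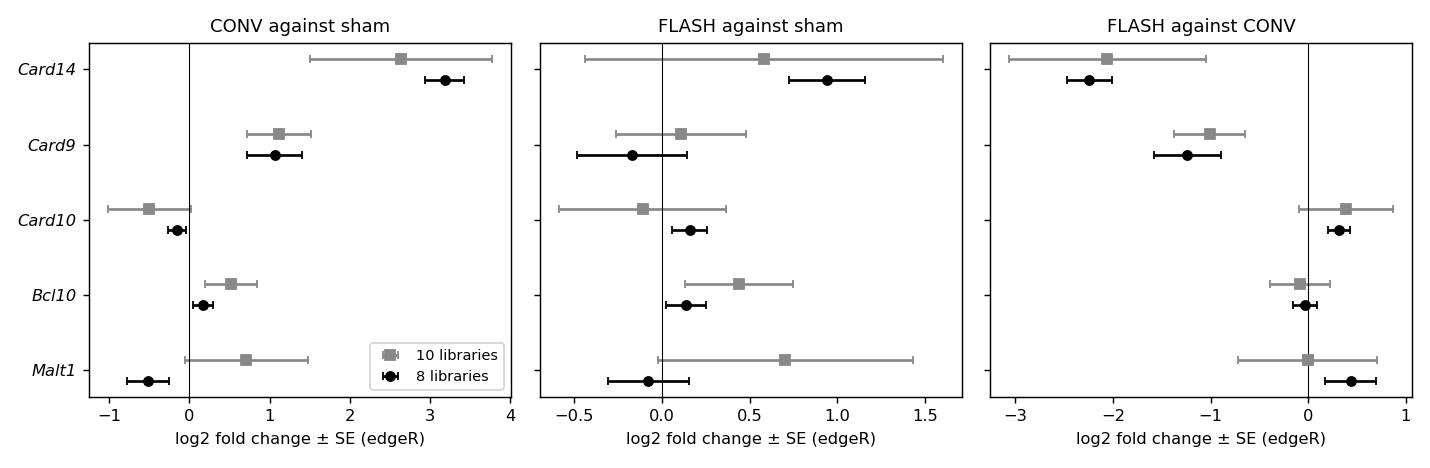
Log2 fold change (edgeR, bars show the SE) of the 5 genes in the 3 contrasts, grey squares with all 10 libraries and black circles with the 8 outside the lymphocyte-rich pair. The value of Card14 in CONV against sham is 2.64 with the wide error and 3.18 with the narrow one, and Malt1 moves from 0.71 to -0.51 in that contrast.

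In CONV against sham, 2 of the 5 genes had groups without overlap with 10 libraries, Card9 and Bcl10, and 3 with 8 libraries, where Card14 joined them. Of all genes tested, 17.7% and 26.1% did so, and since Card14 was chosen in this contrast the count is not read further. An unadjusted p under 0.05 was reached by 1 of the 4 partners, Card9, in both sets, beside 5.82% and 13.3% of all genes. No partner passed at an adjusted p under 0.05 with edgeR, where 0% of all genes passed with 10 libraries and 0.0393% with 8, and none did with DESeq2, where 0.455% and 4.35% did. The median log2 difference over all genes was 0.08 with 10 libraries and 0.01 with 8.

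In FLASH against sham, none of the 5 had groups without overlap with 10 libraries, beside 4.91% of all genes, and 2 did with 8, Card14 and Card10, beside 9.78%. No partner had an unadjusted p under 0.05 in either set, where 0.648% and 2.52% of all genes had one. With edgeR 0% of genes passed after adjustment in both sets, and with DESeq2 0% with 10 libraries and 0.0263% with 8, none of them among these 5. In FLASH against CONV, Card9 was the 1 gene without overlap with 10 libraries, beside 2.25% of all genes, and Card14, Card9 and Card10 were the 3 with 8, beside 26.1%. Unadjusted p was under 0.05 for Card9 with 10 libraries and for Card9 and Card10 with 8, beside 2.97% and 13.7% of genes. After adjustment edgeR passed 0% and 0.0131% of genes, without any partner, and DESeq2 0.276% and 4.39%, with Card9 among the latter. The 3 contrasts share libraries, since each group enters 2 of them, and are not independent of each other.

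Comparing the scaffolds with each other needs levels per length, here CPM per kb of merged exon. In sham, Card10 stood at 16.04 ± 0.867, Card9 at 0.773 ± 0.183 and Card14 at 0.517 ± 0.0813 CPM per kb (SD, n = 3). The sham ranges of Card9 (0.630 to 0.980) and Card14 (0.423 to 0.573) lay next to each other without overlap. The length of Card14 includes the 955 bases (20.7%) that overlap Sgsh, and whether reads in them were counted is not known, so this narrow gap is uncertain. Bcl10 at 4.96 ± 0.235 and Malt1 at 3.98 ± 0.651 CPM per kb stood between Card10 and the rest. Their sham ranges lay apart as well, with the lowest Bcl10 library at 4.77 and the highest Malt1 library at 4.45 CPM per kb.

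Of the summed level of Card14, Card9 and Card10, Card14 made up 3.28%, 3.36% and 2.34% in sham, 3.68%, 6.12% and 5.48% in FLASH replicates 1, 2 and 4, and 22.5% and 22.7% in CONV replicates 1 and 3. Card14 was thus second to Card10 in those 2 CONV libraries (4.44 and 5.07 against 13.6 and 15.6 CPM per kb), whereas its sham mean was below that of Card9. Card10 made up 69.2% and 69.9% there, against 90.9% to 94.2% in sham. In the lymphocyte-rich pair the sum itself was low, 6.73 CPM per kb in both against 16.9 to 22.3 in the other 8 libraries. Card9 made up 18.7% and 26.1% of it, and Card14 1.49% and 2.16%.

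**Figure D4:**
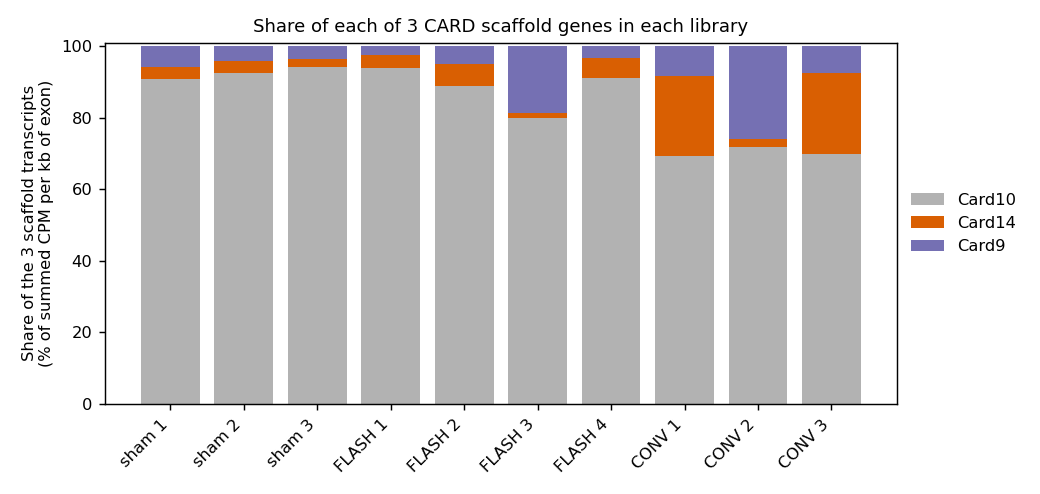
Share of Card10, Card14 and Card9 in their summed level (% of CPM per kb of exon) in each of the 10 libraries. Card14 makes up 22.5% and 22.7% in CONV replicates 1 and 3 against 2.34% to 3.36% in sham, and Card9 makes up 18.7% and 26.1% in the lymphocyte-rich pair.

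The genes upstream and downstream of the scaffolds were followed in 7 lists of 79 genes found in the files, of which 70 were tested. Of these, 15 were higher and 1 lower in CONV than in sham at an unadjusted p under 0.05 without the pair, which is 22.9% beside 13.3% of all genes, and the median log2 difference was 0.16. In FLASH against sham 1 gene was lower (1.43% beside 2.52%) with a median of 0.03, and in FLASH against CONV 2 were higher and 14 lower (22.9% beside 13.7%) with a median of -0.10. After adjustment edgeR passed none of them in any contrast with 10 or 8 libraries. When CONV replicate 1 was left out of the 8 as well, it passed 9 in CONV against sham (6 higher and 3 lower, beside 7.22% of all genes) and 8 in FLASH against CONV (beside 6.52%), and when CONV replicate 3 was left out it passed 3 in each (beside 0.873% and 0.544%), in both cases with a single CONV library. With DESeq2 and 8 libraries, 12 passed in CONV against sham, all higher in CONV, beside 4.35% of all genes. In FLASH against sham 0 passed (beside 0.0263%), and in FLASH against CONV 10 (beside 4.39%), of which 9 were lower in FLASH. limma voom passed none. With all 10 libraries the unadjusted counts were 11 higher in CONV against sham (15.7% beside 5.82% of all genes) and 2 higher in FLASH against sham (2.86% beside 0.648%). In FLASH against CONV 4 were lower (5.71% beside 2.97%). DESeq2 passed 3, 0 and 1 in these 3 contrasts, beside 0.455%, 0% and 0.276% of all genes.

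The receptors and kinases that feed CARD9 had 10 tested genes without the pair, all with a positive log2 difference in CONV against sham (median 0.57). Of all genes, 51.3% were positive there. In the list 5 had an unadjusted p under 0.05, beside 13.3% of all genes. With all 10 libraries the 11 tested genes were all positive as well (beside 56.9% of all genes), with a median of 2.43, and 3 had such a p (beside 5.82%). That fit holds CONV replicate 2 of the pair, where Syk was at 550 CPM and Plcg2 at 326 CPM, while Trim62, at 4.19 CPM, lay in its sham range of 3.36 to 4.33 CPM. Clec4e (Mincle, a receptor for mycobacterial glycolipid and for dead cells) was at 2.05 and 1.69 CPM in CONV replicates 1 and 3, against 0.0911 to 0.135 CPM in sham, which is 3 to 4 counts a library. Clec4n (Dectin-2) was at 10.0 and 3.75 CPM there, against 0.572 to 1.07 CPM in sham, with FLASH replicate 4 at 3.96 CPM and FLASH replicates 1 and 2 at 0.515 and 0.622 CPM. Both were higher in CONV with a spread between the 2 libraries. Vav1 had a log2 difference of 0.97 ± 0.23 (adjusted p = 0.146, edgeR), the shared signalling chain Fcer1g 0.75 ± 0.28 and the kinase Syk 0.72 ± 0.28. CONV replicate 1 was the higher of the 2 for these genes, with Fcer1g at 45.5 and 21.9 CPM (18.2 to 22.5 CPM in sham) and Syk at 92.3 and 49.8 CPM (40.0 to 45.1 CPM in sham). The macrophage sum was 1894 and 681 CPM and the neutrophil sum 20.8 and 10.9 CPM in the same 2 libraries, and their part in this list was not tested. Clec7a (Dectin-1), the best known receptor of this arm, had 25.6 and 4.67 CPM in the 2 CONV libraries, on either side of the sham range of 11.3 to 16.1 CPM. In FLASH against sham the same list had 6 positive and 4 negative values without the pair, a median of 0.04 and no gene with an unadjusted p under 0.05. With all 10 libraries all 11 were positive (beside 54.1% of all genes), with a median of 1.67 and Clec4n under that p (beside 0.648%). That fit holds FLASH replicate 3 of the pair, where Syk was at 388 CPM.

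The receptor arm of CARD10 had medians of -0.12 in CONV and 0.03 in FLASH against sham without the pair, and -0.20 and -0.08 with it. Of its 9 genes 6 were negative in CONV against sham without the pair, and 1, the thrombin receptor F2r, had an unadjusted p under 0.05, beside 13.3% of all genes (-0.62 ± 0.21, adjusted p = 0.280, edgeR). F2r was at 14.5 and 10.0 CPM in the 2 CONV libraries, below the 17.9 to 19.8 CPM of sham, a direction that Card10 shared at a smaller size.

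Downstream, the 15 effectors that link MALT1 to the IKK complex had medians of -0.03 in CONV and 0.07 in FLASH against sham without the pair, and 0.16 and 0.17 with it. Of these, 2 were higher in CONV than in sham at an unadjusted p under 0.05 without the pair, beside 13.3% of all genes. They were the kinase subunit Chuk (IKK alpha, 0.58 ± 0.13, adjusted p = 0.138, edgeR) and Casp8 (0.49 ± 0.13), whereas the partner kinase Ikbkb differed by 0.06 ± 0.11. Of the 8 substrates that MALT1 cleaves, none had an unadjusted p under 0.05 against sham in either irradiated group, with medians of 0.14 in CONV and 0.07 in FLASH without the pair and 0.47 and 0.32 with it. The deubiquitinase Tnfaip3 (A20), an NF-kB target and inhibitor, was higher in FLASH than in CONV by 0.59 ± 0.20 (adjusted p = 0.257). It was at 16.2, 14.1 and 16.1 CPM in the 3 FLASH libraries, at 12.5 and 8.20 CPM in CONV and at 11.8 to 13.3 CPM in sham.

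Among 10 NF-kB subunits and inhibitors, 6 had a positive log2 difference in CONV against sham without the pair, beside 51.3% of all genes. Of these 6, 3 had an unadjusted p under 0.05, beside 13.3% of all genes. These 3 are nuclear or cytoplasmic IkB relatives, and none passed after adjustment with edgeR. Bcl3 was at 16.1 and 44.4 CPM in CONV, above the 5.35 to 8.03 CPM of sham and the 5.49 to 6.95 CPM of FLASH, with a log2 difference of 2.15 ± 0.38 (adjusted p = 0.0924, edgeR). Nfkbiz differed by 0.63 ± 0.17 and Nfkbie by 0.58 ± 0.17. The subunit Rela differed by -0.06 ± 0.12. Nfkbia, the classical feedback inhibitor, was at 59.7 and 56.9 CPM in CONV, above the 41.8 to 53.0 CPM of sham, with a log2 difference of 0.32 ± 0.15 (adjusted p = 0.414, edgeR). In FLASH against sham all 10 had an unadjusted p above 0.05, with a median of -0.03. With all 10 libraries the 10 genes were all positive in both contrasts, with medians of 0.87 in CONV and 0.64 in FLASH. Of all genes, 56.9% and 54.1% were positive there. These fits hold the lymphocyte-rich pair, where Rel was at 100.5 and 94.1 CPM, against 6.51 to 11.4 CPM elsewhere. Rela was at 83.6 and 72.9 CPM in the pair, against 52.4 to 63.7 CPM elsewhere. Bcl3 was at 42.6 and 44.7 CPM there, close to CONV replicate 3.

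Of 16 genes known as CARD14 targets in keratinocytes, 14 were in the files and 6 could be tested without the pair, so this list says little in fat. Its median in CONV against sham was 1.79 without the pair and, over 5 genes, 4.11 with it. Lcn2, a siderophore-binding protein, was at 5.76 and 42.7 CPM in CONV replicates 1 and 3, against 0.370 to 1.14 CPM in sham and 0.394 to 0.772 CPM in FLASH (log2 difference to sham 5.11 ± 0.83, adjusted p = 0.0891, edgeR). Il1b was at 3.81 and 1.47 CPM, against 0.0977 to 0.243 CPM in sham, and Il6 at 0.961 and 0.993 CPM, against 0.122 to 0.135 CPM. Tnf went the other way, at 0.320 and 0.589 CPM in CONV replicates 1 and 3, below the 0.699 to 1.20 CPM of sham. Of the 6 tested genes, 5 had a positive and 1 a negative log2 difference in CONV against sham, beside 51.3% positive among all genes. Il6 in the 3 FLASH libraries, 0.0309 to 0.0606 CPM, lay under the floor of 3 counts, against 4 counts in each sham library, and Il6 was the 1 gene of the lists with a negative value and an unadjusted p under 0.05 in FLASH against sham. The neutrophil product S100a8, also on this list, overlapped between these 2 CONV libraries (2.79 and 0.809 CPM) and sham (0.370 to 2.44 CPM), and stood at 66.9 CPM in CONV replicate 2, where Card14 was near its lowest.

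Among 12 other proteins with a CARD, 2 had an unadjusted p under 0.05 in CONV against sham without the pair, beside 13.3% of all genes. They were Nlrc4 (1.52 ± 0.44) and Casp4 (1.12 ± 0.33), both of the inflammasome, with adjusted p of 0.210 and 0.212 (edgeR). The median of the 12 was 0.24 without the pair and 0.64 with it. Card6 was at 9.75 to 15.0 CPM in the 8 libraries and at 60.6 and 65.2 CPM in the pair, a pattern like that of Malt1. Nod2, a sensor of bacterial cell walls that signals beside CARD9, was above all sham libraries in both FLASH and CONV without the pair, by 0.32 ± 0.17 and 0.23 ± 0.19. Its unadjusted p was above 0.05 in both contrasts. Groups without overlap were found for 9.78% and 26.1% of all genes there.

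**Figure D5:**
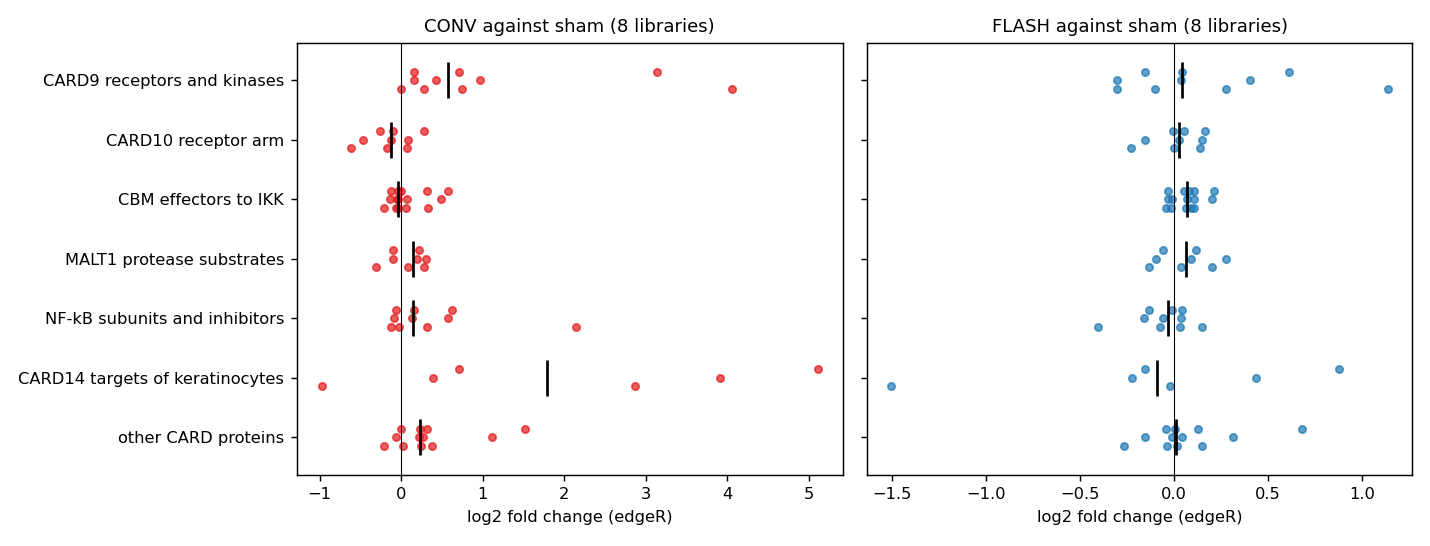
Log2 fold change (edgeR, 8 libraries) of each tested gene in 7 lists around the scaffolds, for CONV against sham on the left and FLASH against sham on the right, with separate horizontal scales. Points are genes and black bars are list medians, for example 0.57 in CONV and 0.04 in FLASH for the receptors and kinases of CARD9.

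The profile of each gene over all libraries was compared with those of 13762 genes by the root mean square (RMS) difference of log2 CPM relative to the sham mean, where a smaller value means more alike. With all 10 libraries the genes most like Card14 were Alas2 (0.69), Rtn4rl2 (0.74), 2810459M11Rik (0.76), Serpina3m (0.76) and Hp (0.80). They differed from each other in which CONV library led. Alas2, the heme synthesis enzyme of red cells, was at 111 and 23.1 CPM in CONV replicates 1 and 3, while Hp (haptoglobin) was at 1564 and 6844 CPM. Both were low in the pair, with Alas2 at 2.12 and 2.18 CPM.

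Without the pair the genes most like Card14 were Mcoln2 (0.42), Oas3 (0.48), Slfn4 (0.53), Chil3 (0.57) and Ccl8 (0.61). The level filter for this comparison used all 10 libraries, and Chil3 met it only through 20.9 CPM in CONV replicate 2, which is in the pair. Elsewhere Chil3 was at 0.0326 to 2.91 CPM, with 0.0326 to 0.152 CPM in sham, around the limit of detection, so its likeness is uncertain. Mcoln2, a lysosomal channel, was at 1.55 to 2.604 CPM in sham, 1.79 to 3.83 CPM in FLASH and 10.7 and 15.3 CPM in CONV. In the pair, however, Mcoln2 was at 47.0 and 38.2 CPM, its highest, where Card14 was at its lowest. Oas3, an interferon-induced antiviral enzyme, was likewise at 49.1 and 56.2 CPM in the pair and at 9.25 and 10.3 CPM in the other CONV libraries. Ccl8, a chemokine for monocytes, was at 47.9 and 25.2 CPM in CONV replicates 1 and 3 against 1.79 to 3.07 CPM in sham.

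For the partners, over 10 libraries, the likest genes of Card9 were Mfsd7b (0.27), Oasl2 (0.28) and Smox (0.31), and those of Card10 were Porcn (0.094), Usp46 (0.11) and Igfbp4 (0.12). Abhd17b (0.078), Cdan1 (0.078) and Dcaf7 (0.084) were likest Bcl10, and Foxp1 (0.15), D130040H23Rik (0.17) and Lrrk2 (0.17) were likest Malt1. Foxp1, a transcription factor of B cells, had 398 and 377 CPM in the pair against 54.0 to 121 CPM elsewhere, and shared with Malt1 the low value in CONV replicate 3. Oasl2, like Card9, was higher in all 3 CONV libraries (31.3, 43.4 and 36.0 CPM) than in sham (15.4 to 21.6 CPM). Serpina3m, Slfn4, Chil3 and the Oas genes have close paralogs, so their counts are uncertain.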

How the data were processed

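Total RNA of the 10 libraries (3 sham, 4 FLASH, 3 CONV) was made into stranded libraries after removal of ribosomal RNA, per the labels' protocols. The deposited values are raw counts, whole numbers per gene symbol that were not normalized. The submitters' processing notes name kallisto 0.5.0 and mm10, whereas each file closes with the 5 special entries that htseq-count writes. Those entries, 52.0% to 69.6% of all reads, were left out of library sizes and tests, and no 2 libraries were identical. The aligner, strand setting and annotation were not given in the sources used here, which leaves genes that overlap on opposite strands uncertain.

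Genes were kept by filterByExpr (15266 with 10 libraries, 15252 with 8), scaled by TMM, and tested in R 4.3.3 with the quasi-likelihood test of edgeR 4.0.16 (robust, 1 mean per group, two-sided, Benjamini-Hochberg adjustment over all genes, threshold 0.05). An SE is the log2 fold change divided by the square root of its F statistic. Genes varied between libraries by a common biological coefficient of variation of 0.543 (10 libraries) and 0.284 (8 libraries). The steps were tested on simulated data. DESeq2 1.42.0 and limma 3.58.1 (voom) were run as alternatives, with other scalings and filters, a replicate block, and each library left out. Profiles used log2 CPM with a prior count of 2 and genes of at least 1 CPM on average over all 10 libraries, also where the pair was left out.

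The 5 genes, the lists and the lymphocyte-rich pair were chosen with earlier results of these data known. Genes of a list were named if their unadjusted p was under 0.05 (up to 3 by p) or for a high level (up to 2). Genes named beside these, such as Clec7a, Fcer1g, Syk, Plcg2, Trim62, Nfkbia, Tnf, S100a8, Card6 and Nod2, were chosen after their values were seen. A gene and a list that had been planned are not reported here. Locations and exon lengths came from GENCODE M21, which holds 95.7% of the symbols.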

Additional observations from a re-analysis of the deposited data

Results flagged for a closer look

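In the group of 4 FLASH libraries, replicate 3 stood far from the others for Card10 and Malt1. For Card10 it was the lowest at 26.6 CPM against 84.7 to 96.5 CPM, and its gap to the nearest library was 0.831 of the whole range. For Malt1 it was the highest at 262 CPM against 60.7 to 72.2 CPM, with a gap of 0.943 of the range. Both gaps are above the 95% critical value of Dixon's test for 4 samples, which chance passes in about 1 of 20 groups. Bcl10 in the same library, at 47.6 CPM against 23.5 to 27.6 CPM, lay just short of that value. The same library had 1798 CPM of B cell and lymph node markers, against 2.23 to 3.43 CPM in the other FLASH libraries, and 3947 CPM of adipocyte markers, against 19102 to 29844 CPM. Groups of 3 libraries were not examined in this way.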

How the results depend on the processing

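The 3 log2 differences of Card14 kept their sign in all 31 alternatives, with 1.52 to 3.27 for CONV against sham, 0.166 to 1.11 for FLASH against sham and -2.62 to -1.35 for FLASH against CONV. Card9 and Card10 kept theirs in both contrasts with CONV, and Bcl10 in both contrasts with sham. Which libraries were in the fit decided most other signs. Without the lymphocyte-rich pair (edgeR, DESeq2, limma voom in order), the value turned to -0.170, -0.170 and -0.223 for Card9 and to 0.160, 0.167 and 0.160 for Card10 in FLASH against sham. For Malt1 it turned to -0.513, -0.500 and -0.560 in CONV against sham, to -0.0761, -0.0721 and -0.0683 in FLASH against sham and to 0.436, 0.428 and 0.492 in FLASH against CONV. Quality weights in voom gave 0.115 for Card10 in FLASH against sham, and -0.350, -0.0485 and 0.302 for Malt1 in these 3 contrasts. For Malt1 in FLASH against CONV, no filter gave 0.00438 and voom 0.203. Left out 1 at a time from 10 and from 8 libraries, values ran from -0.169 to 0.307 and -0.457 to 0.038 (Card9, FLASH against sham), -0.268 to 0.161 and 0.109 to 0.203 (Card10, FLASH against sham), and -0.385 to 0.250 and -0.115 to 0.0206 (Bcl10, FLASH against CONV). For Malt1 they ran from -0.502 to 1.12 and -1.03 to -0.133 (CONV against sham), -0.0767 to 0.917 and -0.205 to 0.00947 (FLASH against sham), and -0.792 to 1.20 and 0.0539 to 0.951 (FLASH against CONV). The causes were not tested.

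Genes past the adjusted threshold in CONV against sham numbered 0 with edgeR, 66 with DESeq2 and 1 with voom quality weights, and 6, 661 and 4 without the pair (edgeR, DESeq2, voom). In FLASH against CONV they were 0, 40 and 1, and 2, 667 and 3, and in FLASH against sham 0, and 4 with DESeq2 without the pair. With each library left out they ran from 0 to 1 of 10 libraries in both CONV contrasts and stayed at 0 in FLASH against sham. From 8 libraries they ran from 0 to 1134 in CONV against sham (1134 without CONV replicate 1, 138 without CONV replicate 3, 2 without FLASH replicate 2, 0 without any 1 sham library) and from 0 to 1025 in FLASH against CONV (1025 and 86 for the same CONV replicates, 3 without sham replicate 2, 0 without any of the others). The fits without CONV replicate 1 or 3 leave a single CONV library. Correlations of deviations from the group mean between same-numbered libraries ran from -0.756 to 0.261. The group means include the lymphocyte-rich pair, so these values cannot decide whether replicate numbers pair the samples. With the replicate block, Bcl10 in FLASH against CONV was 0.0134 and Malt1 0.200, and 0 genes passed in each contrast. At 22.4 M to 36.0 M gene counts, the genes most limited by depth are Card14, with 12 and 20 counts in the lymphocyte-rich pair, and Card9, with 37 to 120 counts.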
